A study of Caenorhabditis elegans with 24 samples.

Results

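The comparison set fed worms on TOR RNAi plates against fed worms on Rheb RNAi plates (Cel-TOR and Cel-Rheb in the labels), the knockdown of a kinase against the knockdown of the GTPase that acts upstream of it. It used 7 of the 24 arrays of the series, chosen by their labels alone: 3 arrays of TOR RNAi worms and 4 of Rheb RNAi worms. All worms were of the wild type strain N2 of Caenorhabditis elegans, were kept at 20 °C with food always present, and were frozen at day 4 of adulthood. RNA of whole worms, 5 µg per sample, was labelled and hybridised to Affymetrix C. elegans Genome Arrays, with 1 sample per array. The labels call the samples biological replicates and the series text speaks of independent experiments. Worms on control RNAi plates, 5 arrays fed and 5 fasted, and worms of both knockdowns fasted for 48 h, 3 arrays of TOR RNAi and 4 of Rheb RNAi, entered the same model and are used below for reference. In feeding RNAi, worms eat bacteria that make double-stranded RNA, and the transcript of matching sequence is lowered but seldom lost.

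Rheb is a small GTPase of lysosomal membranes that activates TOR complex 1 when it carries GTP. TOR, encoded in the worm by let-363, is the kinase at the core of both TOR complexes, and it couples amino acids and growth signals to protein synthesis, fat storage and autophagy. A knockdown of TOR therefore touches both complexes, while Rheb is known as an activator of complex 1. In adult worms the intestine is the main site of digestion, fat storage and yolk synthesis, and lower TOR activity is known to extend life span.

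Values are log2 intensities from GCRMA, and differences are log2 differences of group means, TOR RNAi minus Rheb RNAi, with standard errors (SE). The words rose, fell, higher and lower are used of genes that limma called at an adjusted p under 0.05 over all 12277 genes tested. The median intensity was 52.95 to 58.0 on the TOR RNAi arrays and 53.05 to 54.69 on the Rheb RNAi arrays. Probe sets for bacterial control RNAs added to the samples, 9 in number, differed by -0.54 to 2.2e-04. The mean log2 ratio of 3′ to middle probe sets of the actin, Gapdh and ubiquitin controls, a sign of RNA or labelling quality, was 1.21 to 1.33 on TOR RNAi arrays and 1.0 to 1.82 on Rheb RNAi arrays, with Rheb fed replicate 3 highest. The 4 Rheb RNAi arrays were also less alike. Pairwise correlations were 0.985 to 0.989 within TOR RNAi, 0.968 to 0.985 within Rheb RNAi and 0.961 to 0.978 between the groups. Deviations from the Rheb RNAi mean correlated by 0.12 between replicates 1 and 2 and by -0.05 between replicates 3 and 4. Across these pairs the correlations were -0.58 to -0.43, though deviations from a shared mean by themselves lean to negative values.

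The transcript of each target was lower on its own plates, for rheb-1 on 1 of its 2 probe sets. The brighter let-363 probe set, 174977_at, read 7.72, 7.74 and 7.87 on the TOR RNAi arrays and 9.12, 9.52, 9.49 and 9.30 on the Rheb RNAi arrays. The groups lay well apart, and the difference was -1.58 ± 0.14, which is 2.99-fold (limma's adjusted p = 1.6e-07 over all probe sets). The dimmer probe set, 188271_at, read 5.75, 5.5 and 5.98 on TOR RNAi arrays against 7.13, 7.92, 7.32 and 7.08 on Rheb RNAi arrays, a difference of -1.62 ± 0.20 (limma's adjusted p = 2.8e-05). Fed control worms averaged 9.22 ± 0.23 and 7.67 ± 0.17 on these probe sets (SD, n = 5). For rheb-1 the probe sets disagreed. Probe set 188936_at read 9.05, 8.62 and 8.48 in TOR RNAi worms and 5.59, 6.20, 6.67 and 6.90 in Rheb RNAi worms, without overlap and 5.20-fold apart (2.38 ± 0.33, limma's adjusted p = 1.2e-04). Probe set 175488_at, the brighter and the gene's entry in the gene table, read 9.34, 9.33 and 9.35 in TOR RNAi worms and 8.47, 8.19, 9.34 and 9.39 in Rheb RNAi worms. Rheb fed replicates 1 and 2 lay below the TOR RNAi arrays on it, replicates 3 and 4 among them, and the difference of 0.49 ± 0.27 was not called (limma's adjusted p = 0.36). It was -0.03 without Rheb fed replicates 1 and 2, and 1.01 and called without replicates 3 and 4. Which stretch of each transcript the bacteria carried was not analysed here.

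**Figure D1:**
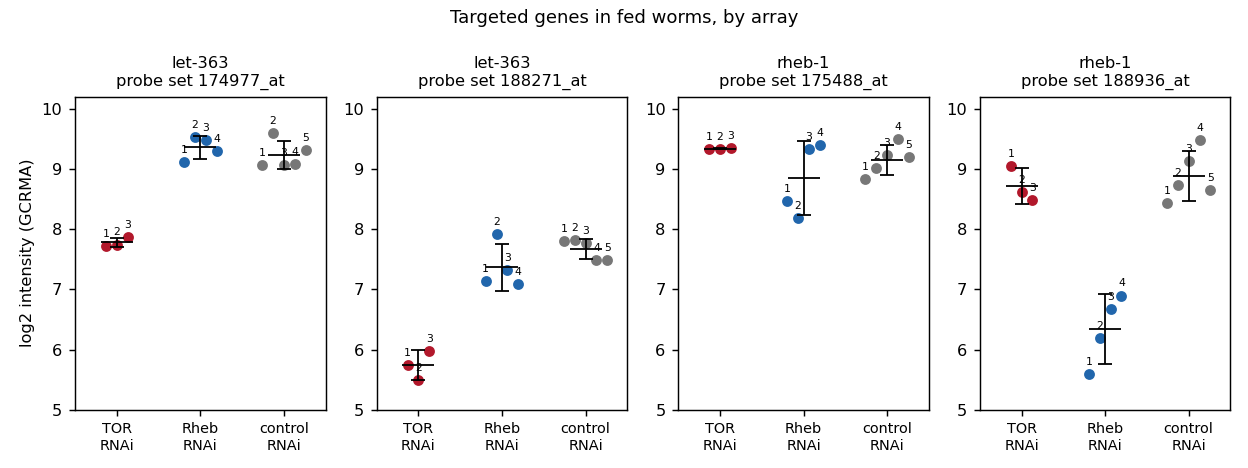
Log2 GCRMA intensity (vertical axis) of the 2 probe sets of let-363 and the 2 of rheb-1 on each fed array; points are arrays with their replicate numbers, bars are the mean ± SD of 3 TOR RNAi, 4 Rheb RNAi and 5 control RNAi arrays. Both let-363 probe sets are lowest on the 3 TOR RNAi arrays, probe set 188936_at is lowest on the 4 Rheb RNAi arrays, and on probe set 175488_at only Rheb RNAi arrays 1 and 2 lie below the TOR RNAi arrays.

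With food present, the genes higher in TOR RNAi than in Rheb RNAi worms included 21 of 99 C-type lectins, which are known as gut defence proteins, and 9 of 33 digestive and lysosomal peptidases. The lower genes included 11 of 105 cuticle collagens and tbh-1, the gene of a neurotransmitter enzyme. Of the 12277 genes tested, limma called 693, or 5.64%, of which 344 (2.8%) were higher and 349 (2.84%) lower in TOR RNAi worms. At an unadjusted p under 0.05 there were 2470. The difference was at least 2-fold for 203 higher and 179 lower genes, at least 4-fold for 40 and 29, and at least 8-fold for 7 and 6. The 3 TOR RNAi and 4 Rheb RNAi arrays did not overlap for 651 of the called genes, and for 16.1% of all genes tested. Over all genes the median difference was 0.01. In whole worms, fewer cells of a type and less RNA per cell cannot be told apart. Leaving out Rheb fed replicate 1 or TOR fed replicate 1, 2 or 3 left 443, 426, 417 and 414 calls, and a fit of the 7 arrays alone gave 307. Without Rheb fed replicates 1 and 2 together there were 517 calls, 36% of them higher, and 356 were among the 693. Without replicates 3 and 4 together there were 617, 60.1% of them higher, and 409 were among the 693. Both of these omissions were chosen after seeing the data. Without the array of highest 3′ to middle ratio in each group, TOR fed replicate 2 and Rheb fed replicate 3, there were 413 calls, of which 64.9% were higher, against 49.6% over all 7 arrays.

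In 11 of the 15 largest upward differences both knockdowns averaged below fed control worms, Rheb RNAi worms the further. mbug-1 read 12.29, 12.29 and 12.69 in TOR RNAi worms and 6.64, 6.86, 7.18 and 8.16 in Rheb RNAi worms, against 13.54 to 13.88 in fed control worms. Every TOR RNAi array was above every Rheb RNAi array, and the difference of 5.21 ± 0.39, or 37-fold, was the largest of all genes tested (limma's adjusted p = 7.1e-09). sysm-1 read 13.76, 12.74 and 13.17 in TOR RNAi worms and 8.51, 7.01, 10.11 and 9.35 in Rheb RNAi worms, a difference of 4.47 ± 0.47 (limma's adjusted p = 1.6e-06). The Rheb RNAi arrays spread over 3 log2 units on this gene, with replicate 2 lowest, and none reached the TOR RNAi arrays. C14C6.5 read 11.29, 10.63 and 11.43 in TOR RNAi worms against 7.02, 6.91, 7.29 and 7.89 in Rheb RNAi worms (3.84 ± 0.33, limma's adjusted p = 6.5e-08), and its second probe set gave 4.76. dod-24, a gene known to be lowered by the FOXO factor DAF-16 and raised in infection, read 10.64, 11.40 and 11.31 in TOR RNAi worms and 7.30, 7.88, 7.66 and 7.83 in Rheb RNAi worms (3.45 ± 0.28, limma's adjusted p = 2.5e-08). Here too the arrays of the groups were far apart, and fed control worms lay above both, at 12.83 on average.

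Among the 15 largest upward differences the fed control mean lay between the knockdowns for 2 genes and below both for 2. lys-10, a lysozyme gene, read 10.78, 10.23 and 10.60 in TOR RNAi worms and 7.18, 5.33, 8.19 and 7.26 in Rheb RNAi worms, with fed control worms at 5.01 to 7.59. Only the TOR RNAi arrays stood out, and the difference was 3.55 ± 0.64 (limma's adjusted p = 0.0013). nspg-7.2, of a nematode-specific peptide family, read 7.47, 9.34 and 8.63 in TOR RNAi worms and 4.15, 4.19, 6.36 and 6.17 in Rheb RNAi worms, with control worms at 4.13 to 5.30 (3.26 ± 0.45, limma's adjusted p = 7.5e-05). The aquaglyceroporin gene aqp-1, a channel for water and glycerol, read 7.37, 9.38 and 9.85 in TOR RNAi worms and 5.36, 5.57, 6.35 and 7.26 in Rheb RNAi worms, so that TOR fed replicate 1 barely cleared the highest Rheb RNAi array. Its difference of 2.73 ± 0.58 (limma's adjusted p = 0.0054) was 2.24 and not called without TOR fed replicate 3, and 2.54 and not called without the highest-ratio array of each group. F49F1.5 was at 2.65 ± 0.39. The others of the 15 were F28H7.3 (3.45), F01D5.1 (2.86), the C-type lectin genes clec-67 (2.64) and clec-50 (2.57), drd-50 (2.61), F55G11.8 (2.56) and C17H12.8 (2.54). On clec-67, clec-50 and C17H12.8 fed control worms averaged above both knockdowns, at 9.64, 13.43 and 13.18. F55G11.8 averaged under log2 4, the lower limit for testing, in Rheb RNAi worms. Once values under 4 were raised to 4, its difference was at least 2.05.

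In 12 of the 15 largest downward differences the TOR RNAi worms were the further below fed control worms, by -5.28 to -2.25, while Rheb RNAi worms were at -2.04 to 0.14. F54F7.2 read 5.91, 5.71 and 5.95 in TOR RNAi worms and 9.94, 9.39, 9.91 and 10.02 in Rheb RNAi worms, with control worms at 10.87 to 11.43. The difference of -3.96 ± 0.23 was 15.6-fold (limma's adjusted p = 2.0e-10). tbh-1 encodes tyramine beta-hydroxylase, which makes the neurotransmitter octopamine, and read 7.98, 7.80 and 7.95 in TOR RNAi worms against 11.65, 11.54, 11.33 and 11.34 in Rheb RNAi worms. Within each group these arrays were close to each other, and the difference of -3.55 ± 0.19 had the smallest adjusted p of the named genes (limma's adjusted p = 6.8e-11). Y51H7C.1 read 4.88, 4.91 and 6.18 in TOR RNAi worms and 9.74, 9.20, 9.17 and 8.92 in Rheb RNAi worms, a difference of -3.94 ± 0.41 (limma's adjusted p = 1.6e-06). C39D10.7 read 10.22, 10.09 and 10.05 in TOR RNAi worms against 13.74, 13.91, 13.26 and 12.79 in Rheb RNAi worms, and differed by -3.30 ± 0.29 (limma's adjusted p = 1.3e-07). Of similar pattern were C44B7.5 (-2.76), F42A8.1 (-2.69), C17G1.2 (-2.47), ddo-3 (-2.4), which encodes an oxidase of D-aspartate, F13H8.3 (-2.37) and the ammonium transporter gene amt-1 (-2.34). C35B1.4 (-2.62) and fipr-26 (-3.06), of a family related to genes induced by fungal infection, were lowest in TOR RNAi worms, intermediate in Rheb RNAi worms and highest in control worms.

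In the other 3 of the 15 largest downward differences Rheb RNAi worms averaged above fed control worms. For spp-12 and clec-76 both knockdowns did, clec-76 by only 0.39 in TOR RNAi worms. spp-12, a saposin-like gene of the family of pore-forming defence proteins, read 9.78, 10.76 and 9.93 in TOR RNAi worms, 12.74, 13.32, 13.24 and 13.88 in Rheb RNAi worms and 6.90 to 9.04 in control worms. It was at -3.14 ± 0.46 between the knockdowns (limma's adjusted p = 1.3e-04). clec-76, a C-type lectin gene, read 4.64, 5.03 and 5.90 in TOR RNAi worms and 7.75, 7.93, 8.23 and 8.21 in Rheb RNAi worms, and control worms, at 4.19 to 5.24, overlapped the TOR RNAi worms (-2.84 ± 0.33, limma's adjusted p = 5.9e-06). sri-40, of a chemoreceptor family, averaged 3.53 ± 0.21 (SD, n = 3) in TOR RNAi worms and 6.47 ± 0.46 (SD, n = 4) in Rheb RNAi worms, at -2.93. By the bound used for F55G11.8 its difference was at least -2.47 in size, and that of amt-1 at least -1.51.

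**Figure D2:**
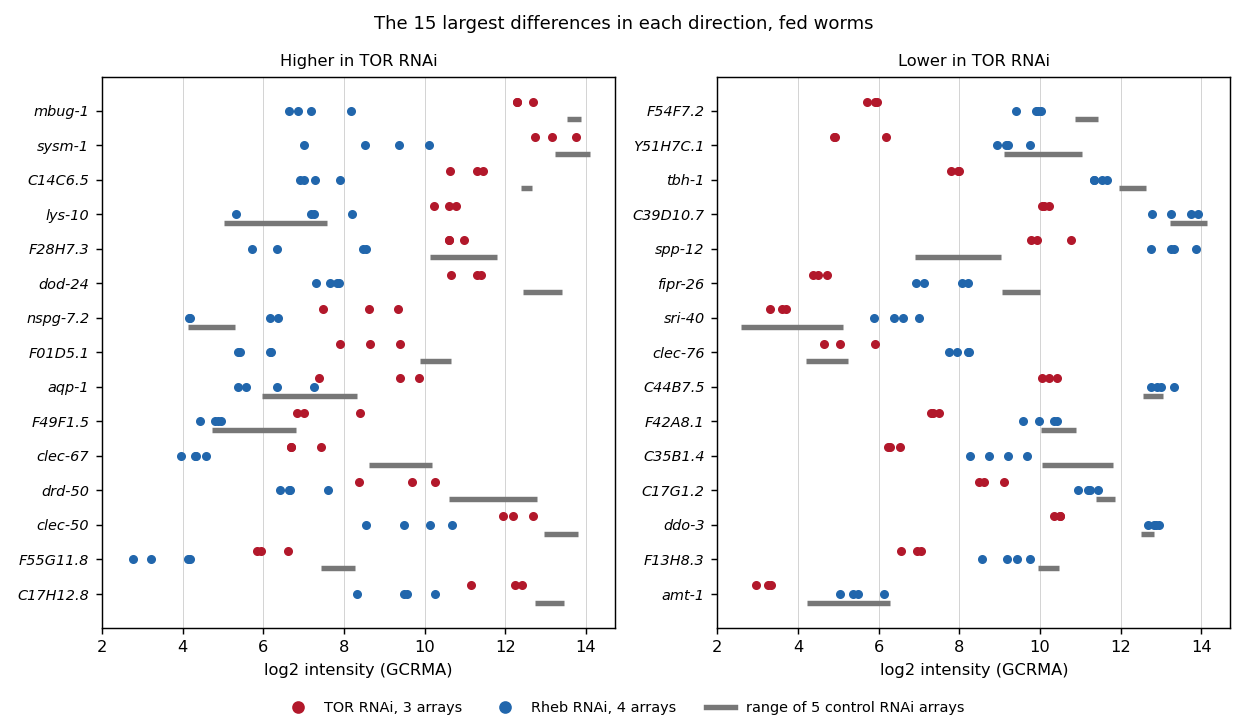
Log2 GCRMA intensity (horizontal axis) of the 15 called genes with the largest upward (left) and the 15 with the largest downward differences (right) in fed worms; red points are the 3 TOR RNAi arrays, blue points the 4 Rheb RNAi arrays, and grey bars span the 5 control RNAi arrays. On the left the control bars mostly lie at or right of the red points, as for mbug-1, and on the right mostly at or right of the blue points, as for tbh-1.

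Set beside control worms, the differences between the knockdowns took several forms. The 2 differences from control share the control arrays, so they are given side by side and were not correlated. mbug-1 was at -1.34 in TOR RNAi and at -6.56 in Rheb RNAi worms relative to fed control worms, sysm-1 at -0.41 and -4.88, and C14C6.5 at -1.42 and -5.26. F54F7.2 was at -5.28 in TOR RNAi and at -1.32 in Rheb RNAi worms, tbh-1 at -4.42 and -0.87, and ddo-3 at -2.28 and 0.12. lys-10 was at 4.10 in TOR RNAi and at 0.55 in Rheb RNAi worms, and spp-12 at 2.25 and 5.39. Over the 344 genes higher in TOR RNAi worms the control mean lay above both knockdowns for 31.7%, between them for 47.1% and below both for 21.2%. Over the 349 lower genes these shares were 34.1%, 46.4% and 19.5%. For comparison, it lay between the knockdowns for 21.8% of all tested genes with TOR RNAi above Rheb RNAi, and for 20.2% of those with TOR RNAi below. Called genes were chosen for a wide gap between the knockdowns, and a wide gap by itself makes a control mean between them more likely.

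The C-type lectins were the list with the most genes higher in TOR RNAi worms. They are secreted proteins with a sugar-binding fold, many of them made in the intestine and raised in infection. Of 99 tested, 21 were higher, by 0.86 to 2.64, and 2 were lower, with a median of 0.24, against 2.8% higher, 2.84% lower and a median of 0.01 over all genes. clec-85 read 10.14, 9.64 and 10.42 in TOR RNAi worms and 7.42, 7.24, 8.46 and 8.28 in Rheb RNAi worms, with control worms above both at 12.51 on average (2.22 ± 0.32, limma's adjusted p = 1.2e-04). Summed over the list, intensity was 90295 to 103187 on TOR RNAi arrays and 61965 to 73390 on Rheb RNAi arrays, without overlap, and 100233 to 123704 on control arrays. Without any 1 of the 7 arrays 14 to 19 were higher, and without Rheb fed replicates 1 and 2 together 11. The median was 0.37 without TOR fed replicate 1.

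Among 10 genes known to be lowered by DAF-16 and named dod, 3 were higher and none lower, with a median of 1.2, which was 0.64 without TOR fed replicate 2 and 0.70 without the highest-ratio array of each group. Beside dod-24 these were dod-19 (1.57 ± 0.32, limma's adjusted p = 0.0036) and dod-22 (1.62 ± 0.39, limma's adjusted p = 0.014). dod-22 read 4.17, 4.55 and 5.04 in TOR RNAi worms and 2.90, 3.11, 2.92 and 2.94 in Rheb RNAi worms, near the floor of the measurement. Once values under 4 were raised to 4 it differed by at least 0.59, and without TOR fed replicate 3 it was at 1.40 and not called. Of 17 genes known to be raised by DAF-16, 2 were higher (aqp-1 and the lysozyme gene lys-8) and 2 lower (sod-3 and the desaturase gene fat-5), with a median of 0.02. Only lys-8 was higher without TOR fed replicate 3, and only sod-3 lower without any 1 of the other arrays.

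Lysozymes and saposins went both ways: of 28, lys-10, ilys-5 and lys-8 were higher and 3, spp-12 among them, lower. lys-8 read 13.46, 13.14 and 13.68 in TOR RNAi worms and 12.14, 11.99, 12.56 and 12.28 in Rheb RNAi worms (1.18 ± 0.22, limma's adjusted p = 0.0016). ilys-5, an invertebrate-type lysozyme gene, read 11.78, 12.35 and 11.99 in TOR RNAi worms and 9.0, 9.10, 10.81 and 11.17 in Rheb RNAi worms, with control worms at 14.33 to 14.60. Rheb fed replicates 3 and 4 lay nearest the TOR RNAi arrays, and the difference was 2.02 ± 0.39 (limma's adjusted p = 0.0025). It rests on a probe set that may also read related genes, while its other probe sets gave 2.02 and 2.21.

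Among 33 digestive and lysosomal peptidases, 9 were higher, by 0.99 to 2.10, and 1, ctsa-1.1, lower, and 23 were not called, with a median of 0.52. The cathepsin A-like genes led: ctsa-4.2 read 10.03, 10.24 and 9.84 in TOR RNAi worms and 7.20, 8.02, 7.69 and 8.84 in Rheb RNAi worms (2.10 ± 0.34, limma's adjusted p = 4.5e-04). ctsa-1.2 read 11.65, 11.02 and 11.49 in TOR RNAi worms and 8.47, 9.87, 9.75 and 9.92 in Rheb RNAi worms, with Rheb fed replicate 1 lowest (1.88 ± 0.33, limma's adjusted p = 8.8e-04). The aspartic peptidase gene asp-17 was at 1.45 ± 0.33 and the cathepsin Z-like gene cpz-2 at 1.1 ± 0.24 (limma's adjusted p = 0.0087 and 0.0073). asp-17 was at 1.23 and not called without TOR fed replicate 3. The count of higher peptidases fell to 3 without TOR fed replicate 3, to 5 without Rheb fed replicate 1 and to 3 in a fit of the 7 arrays alone, and ctsa-1.1 was not called without Rheb fed replicate 1 or 3 or TOR fed replicate 2 or 3. The median was 0.80 without TOR fed replicate 1 and 0.83 without TOR fed replicate 3.

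Of 24 lipases and lipid-binding proteins, 4 lipase genes of the lipl family were higher and 1 gene, far-3, was lower. lipl-1, known for its part in breaking down stored fat in fasting, read 8.05, 9.0 and 8.90 in TOR RNAi worms and 6.26, 6.26, 5.72 and 6.85 in Rheb RNAi worms (2.38 ± 0.39, limma's adjusted p = 5.1e-04). All TOR RNAi arrays were above all Rheb RNAi arrays and close to control worms, at 8.17 to 8.84. lipl-3 was at 2.09 ± 0.35, at least 1.40 by the bound used for F55G11.8, and lipl-5 at 1.71 ± 0.34 (limma's adjusted p = 6.4e-04 and 0.0031). far-3, a secreted protein that binds fatty acids and retinol, read 10.37, 10.46 and 10.67 in TOR RNAi worms and 12.25, 12.36, 12.53 and 12.80 in Rheb RNAi worms (-1.99 ± 0.37, limma's adjusted p = 0.0016).

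Genes of fat oxidation went both ways. Of 40, 3 were higher and 4 lower, with a median of -0.06, though 1 was higher without TOR fed replicate 3 and 2 were lower without TOR fed replicate 1 or 2. acs-2, an acyl-CoA synthetase gene of mitochondrial beta-oxidation, read 8.17, 9.19 and 10.84 in TOR RNAi worms and 7.51, 7.05, 6.38 and 7.08 in Rheb RNAi worms. The TOR RNAi arrays spread widely, and the difference of 2.39 ± 0.53 (limma's adjusted p = 0.0077) was 1.67 and not called without TOR fed replicate 3 and 2.29 and not called without the highest-ratio array of each group. A dimmer probe set of acs-2 gave 1.66 (limma's adjusted p = 0.023). acox-1.5, an acyl-CoA oxidase gene of peroxisomes, was at 1.16 ± 0.26 (limma's adjusted p = 0.0074). Of the carnitine palmitoyltransferase genes, whose family carries fatty acids into mitochondria, cpt-3, cpt-4 and cpt-5 were lower. cpt-3 read 6.07, 6.01 and 5.59 in TOR RNAi worms and 8.30, 7.58, 8.44 and 8.35 in Rheb RNAi worms, with control worms at 4.85 to 5.98, so only Rheb RNAi worms were high (-2.28 ± 0.38, limma's adjusted p = 6.4e-04). cpt-5 was at -1.18 ± 0.25 (limma's adjusted p = 0.0057), and at -0.96 and not called without TOR fed replicate 1. Its call was also lost in a fit of the 7 arrays alone and without Rheb fed replicates 3 and 4 together. Of 21 genes that build, desaturate or lengthen fatty acids, 1 was lower, the desaturase gene fat-5 (-1.03 ± 0.29, limma's adjusted p = 0.037), whose call was lost without any 1 of the arrays other than TOR fed replicate 3, at -1.07 to -0.92. fat-7 was at -1.55 ± 0.50 and not called (limma's adjusted p = 0.075).

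Enzymes that modify foreign and endogenous small molecules differed gene by gene. Of 57 UDP-glucuronosyltransferases, which attach sugars to such molecules, 3 were higher and 9 lower, by -2.3 to -0.95, with a median of -0.07. ugt-14 read 5.74, 5.29 and 6.14 in TOR RNAi worms and 7.79, 7.95, 7.92 and 8.43 in Rheb RNAi worms (-2.3 ± 0.25, limma's adjusted p = 2.1e-06), and control worms, at 7.55 to 7.74, were near the Rheb RNAi arrays. ugt-66 and ugt-32, in contrast, were highest in Rheb RNAi worms: ugt-32 read 6.12, 6.67 and 7.96 in TOR RNAi worms, 8.50, 8.85, 8.75 and 9.38 in Rheb RNAi worms and 5.09 to 5.39 in control worms. They were at -2.11 ± 0.36 and -1.95 ± 0.31 (limma's adjusted p = 6.6e-04 and 3.0e-04). ugt-17 was higher, at 2.06 ± 0.30 (limma's adjusted p = 1.3e-04). The count of lower genes was 4 without TOR fed replicate 2, and that of higher genes 6 without Rheb fed replicate 3, 5 without TOR fed replicate 2 and 1 without TOR fed replicate 3. Without the highest-ratio array of each group 7 were higher and 4 lower. Of 55 cytochrome P450 genes 5 were higher and 4 lower, among them cyp-13A2 (1.46 ± 0.24) and cyp-36A1 (1.52 ± 0.30) higher and cyp-29A4 (-1.33 ± 0.27) lower (limma's adjusted p = 4.1e-04, 0.0026 and 0.0039). Without the highest-ratio array of each group 2 were higher and none was lower, with cyp-29A4 at -1.08. Without 1 array of the 7 there were 2 to 5 higher and 1 to 4 lower, with 3 higher without Rheb fed replicate 1 or 2, 2 higher without TOR fed replicate 2 or 3, 2 lower without Rheb fed replicate 4 or TOR fed replicate 1, and 1 lower without Rheb fed replicate 1 or TOR fed replicate 2.

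Antioxidant enzymes, glutathione S-transferases and heat shock proteins with chaperones each held 1 called gene, where 5.64% of all genes tested were called. sod-3, a mitochondrial superoxide dismutase gene known as a target of DAF-16, read 5.25, 5.12 and 5.65 in TOR RNAi worms and 6.55, 6.02, 6.67 and 6.39 in Rheb RNAi worms. It was the only gene called of 23 antioxidant enzymes (-1.07 ± 0.20, limma's adjusted p = 0.0023), and it was at -0.87 and not called without the highest-ratio array of each group. Of 36 glutathione S-transferases gst-24 was lower (-0.81 ± 0.17, limma's adjusted p = 0.0051; -0.67 and not called without the highest-ratio array of each group), and of 31 heat shock proteins and chaperones hsp-43 (-1.41 ± 0.34, limma's adjusted p = 0.014). The call of hsp-43 was lost without Rheb fed replicate 1 or TOR fed replicate 2, at -1.23 and -1.29.

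Among the genes of the cuticle, some collagens were lower in TOR RNAi worms. Collagens build the cuticle, the coat that the epidermis secretes, and of 105 tested 11 were lower, by -2.23 to -1.15, and none higher, with 85 below 0 and a median of -0.25. col-19, an adult collagen gene, read 6.56, 6.04 and 6.97 in TOR RNAi worms and 8.66, 9.32, 8.22 and 8.02 in Rheb RNAi worms, with control worms above both at 9.47 to 10.14 (-2.03 ± 0.30, limma's adjusted p = 1.3e-04). col-101 read 7.01, 6.17 and 7.43 in TOR RNAi worms and 9.13, 9.19, 8.89 and 8.21 in Rheb RNAi worms, and control worms were again highest, at 10.65 to 11.35 (-1.99 ± 0.29, limma's adjusted p = 1.4e-04). col-8 (-2.01 ± 0.36) and col-158 (-1.21 ± 0.17) were lower as well (limma's adjusted p = 0.0011 and 7.1e-05). Summed collagen intensity was 19675, 10093 and 24555 on the TOR RNAi arrays, 47447, 58878, 33979 and 23095 on the Rheb RNAi arrays and 52998 to 111808 on control arrays, so that Rheb fed replicate 4 lay just under TOR fed replicate 3. The count of lower collagens was 6 without TOR fed replicate 2, 16 without Rheb fed replicate 4, 20 without Rheb fed replicates 3 and 4 and 5 without replicates 1 and 2. Without the highest-ratio array of each group it was 6.

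Of 55 hedgehog-related genes and their patched-related receptors, which worms express mainly in epidermis, 9 were lower, by -1.97 to -0.62, and 1, wrt-6, higher, with a median of -0.23. wrt-6 was not called without Rheb fed replicate 1 or 3 or TOR fed replicate 1 or 3. grd-3 read 7.52, 7.39 and 7.06 in TOR RNAi worms and 9.16, 8.93, 9.68 and 9.40 in Rheb RNAi worms, with control worms at 7.28 to 8.28, near the TOR RNAi arrays (-1.97 ± 0.29, limma's adjusted p = 1.3e-04). grd-5 (-1.54 ± 0.28) and ptr-14 (-1.32 ± 0.20) were lower (limma's adjusted p = 0.0016 and 2.5e-04), and control worms were close to TOR RNAi worms on them too, at 7.78 and 7.03 on average. grl-4 was at -1.32 ± 0.30 (limma's adjusted p = 0.0089), and at -1.08 and not called without TOR fed replicate 2. The count of lower genes was 5 without TOR fed replicate 1, 4 without TOR fed replicate 2 and 3 without the highest-ratio array of each group. Of 12 general markers of epidermis and seam none was called, and their median was -0.06.

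Nearly all muscle genes had differences below 0, though few passed the test. Of 26 genes of the contractile apparatus and its attachments 25 were below 0, with a median of -0.64, and 6 were called, all lower. unc-89, which encodes the giant protein of the sarcomere's M-line, read 8.41, 8.32 and 8.47 in TOR RNAi worms and 8.98, 9.13, 10.02 and 9.13 in Rheb RNAi worms, with control worms lower still at 7.32 to 8.08. unc-27, a troponin I gene, read 10.73 to 11.90 on the 3 TOR RNAi arrays and 12.01 to 12.88 on the 4 Rheb RNAi arrays, and the lowest Rheb RNAi array was just above the highest TOR RNAi array. The differences were -0.91 ± 0.24 for unc-89, -1.08 ± 0.28 for unc-27, -0.85 ± 0.22 for dim-1 and -0.69 ± 0.17 for the vinculin gene deb-1 (limma's adjusted p = 0.024, 0.023, 0.024 and 0.019). Summed muscle intensity was 60866, 47569 and 75346 on TOR RNAi arrays, 83136, 82653, 110685 and 80083 on Rheb RNAi arrays and 42544 to 55166 on control arrays. Rheb fed replicate 3, which also had the highest 3′ to middle ratio, had the highest sum, and the part of that ratio in the result was not tested. Without it 1 muscle gene was called, and without TOR fed replicate 1 or 2 none. The median was -0.40 without TOR fed replicate 2. Without the highest-ratio array of each group none was called and the median was -0.23, with the named genes at -0.64 (unc-89), -0.62 (unc-27), -0.49 (dim-1) and -0.45 (deb-1). The named calls were lost without any 1 of Rheb fed replicate 3, TOR fed replicate 1 and TOR fed replicate 2, and that of unc-89 also without TOR fed replicate 3, at differences of -1.13 to -0.56.

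**Figure D3:**
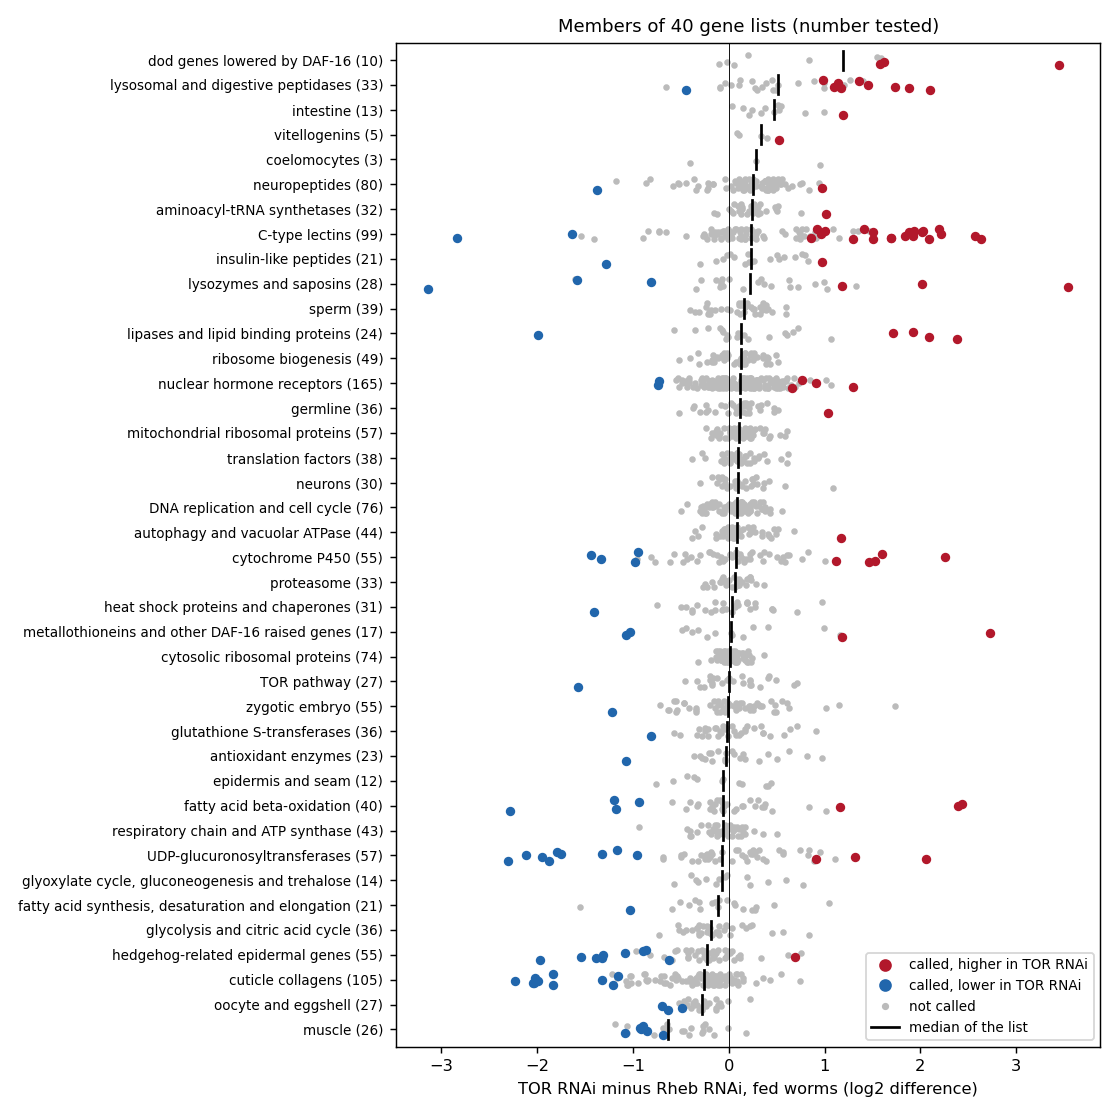
TOR RNAi minus Rheb RNAi log2 difference in fed worms (horizontal axis) of each tested member of 40 gene lists, ordered by median, with the number tested in brackets; large red and blue points are genes called higher and lower, small grey points were not called, and black ticks are list medians. Lectins and peptidases are the lists with the most red points. Collagens, hedgehog-related genes and UDP-glucuronosyltransferases are the lists with the most blue ones, and cytosolic ribosomal proteins lie in a narrow band around 0.

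Markers of other cell types differed less. All 13 intestine markers were above 0, with a median of 0.47 that was 0.22 without Rheb fed replicate 4, and 1 was called: pho-1, an intestinal acid phosphatase gene, read 6.13, 6.15 and 6.39 in TOR RNAi worms and 5.01, 5.48, 4.92 and 4.71 in Rheb RNAi worms (1.19 ± 0.26, limma's adjusted p = 0.0061). Their summed intensity was 7283, 5882 and 6962 on TOR RNAi arrays and 5395, 5769, 5634 and 3358 on Rheb RNAi arrays, so the groups did not overlap and Rheb fed replicate 4 was lowest. The C-type lectin and peptidase sums did not overlap either (207999 to 250395 on TOR RNAi arrays and 169312 to 207693 on Rheb RNAi arrays for peptidases), and the part of the intestine sum in their differences was not tested. None of 30 neuron markers was called, and their median was 0.10. Of 36 germline markers 1 was called, csr-1, an Argonaute gene (1.04 ± 0.28, limma's adjusted p = 0.029), at 0.54 and not called without the highest-ratio array of each group. Its call was also lost without any 1 of Rheb fed replicates 1 and 3 and TOR fed replicates 1 and 2, at 0.78 to 1.01.

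Of 27 oocyte and eggshell markers 26 were below 0 and 3 were lower, with a median of -0.28 that was -0.14 without TOR fed replicate 3. rme-2, the yolk receptor gene of oocytes, read 11.51, 11.80 and 11.07 in TOR RNAi worms and 11.79, 12.29, 12.46 and 12.08 in Rheb RNAi worms, with control worms at 12.55 to 12.92. The groups touched at TOR fed replicate 2 and Rheb fed replicate 1. rme-2 was at -0.69 ± 0.19, and the eggshell genes perm-4 and perm-2 at -0.63 ± 0.17 and -0.49 ± 0.13 (limma's adjusted p = 0.032, 0.031 and 0.031). Summed oocyte and eggshell intensity was 168370, 159693 and 128830 on TOR RNAi arrays and 174628, 213613, 204329 and 174496 on Rheb RNAi arrays, against 211116 to 271875 on control arrays. No call remained without Rheb fed replicate 3 or TOR fed replicate 3, or in a fit of the fed arrays, and 1 without Rheb fed replicate 1, Rheb fed replicate 2 or TOR fed replicate 2. The 3 genes were then at -0.72 to -0.43. The yolk protein gene vit-2, transcribed in the intestine, was at 0.52 ± 0.14 (limma's adjusted p = 0.028), and its call was lost without any 1 of Rheb fed replicates 1 and 4 and TOR fed replicates 1 and 3, at 0.46 to 0.52. Of the 5 vitellogenin genes it was the only one called. None of 39 sperm genes and 3 coelomocyte markers was called. Of 55 genes of the zygotic embryo sdz-27 was lower (-1.22 ± 0.17, limma's adjusted p = 8.1e-05).

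The machinery of growth, the best known output of TOR, was nearly without calls between the knockdowns. None of 74 cytosolic ribosomal protein genes was called, none had an unadjusted p under 0.05, and their differences ran from -0.32 to 0.37 with a median of 0.02. None of 57 mitochondrial ribosomal protein genes, 38 translation factors, 49 genes of ribosome biogenesis or 33 proteasome genes was called, with medians of 0.11, 0.10, 0.13 and 0.07 (0.02 to 0.24 for ribosome biogenesis with 1 array left out). At an unadjusted p under 0.05 there were 4, 3, 4 and 2. Among 32 aminoacyl-tRNA synthetases, which load transfer RNAs, 30 were above 0 with a median of 0.24, and 1 was called, ears-2 (1.01 ± 0.24, limma's adjusted p = 0.014), at 0.89 and 0.90 and not called without Rheb fed replicate 1 or TOR fed replicate 3. Of 76 genes of DNA replication and the cell cycle none was called (6 at an unadjusted p under 0.05). Neither was any of 43 genes of the respiratory chain, 36 of glycolysis and the citric acid cycle or 14 of the glyoxylate cycle, gluconeogenesis and trehalose, with medians of -0.06, -0.19 and -0.07 and with 5, 6 and 3 at an unadjusted p under 0.05. GCRMA normalizes arrays to each other, a step that would remove a change shared by all transcripts.

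Within the TOR pathway itself let-363 was the only gene called of 27. raga-1, a Rag GTPase that brings amino acid signals to TOR complex 1, was at 0.68 ± 0.23, and the sestrin gene sesn-1, whose relatives in mammals inhibit that complex, at 0.72 ± 0.26. Neither passed (limma's adjusted p = 0.080 and 0.11), though raga-1 did with fed and fasted arrays of a knockdown and number as a random block. skn-1, a stress factor known to respond to TOR, was at -0.46 ± 0.19 (limma's adjusted p = 0.17). Of 44 genes of autophagy and of the vacuolar ATPase, the proton pump of lysosomes, 1 was called: vha-6, its intestinal subunit, at 1.17 ± 0.30 (limma's adjusted p = 0.024). It read 9.55, 9.61 and 9.90 in TOR RNAi worms and 8.22, 8.23, 9.25 and 8.38 in Rheb RNAi worms, and its call was lost without any 1 of Rheb fed replicates 1 and 2 and TOR fed replicates 1, 2 and 3, at 1.06 to 1.24.

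Each list of hormone-like signals and receptors held calls in both directions, where 2.8% of all genes tested were higher and 2.84% lower. Of 21 insulin-like peptide genes ins-37 was lower (-1.28 ± 0.31, limma's adjusted p = 0.014; -1.15 and not called without TOR fed replicate 2) and ins-23 higher. ins-23 read 8.82, 9.09 and 8.88 in TOR RNAi worms and 8.63, 6.99, 8.08 and 8.12 in Rheb RNAi worms, both far above control worms at 4.71 to 4.88. Its difference of 0.98 ± 0.29 (limma's adjusted p = 0.045) was not called without any 1 of the arrays other than Rheb fed replicate 1, at 0.65 to 1.03. Of 80 neuropeptide genes nlp-26 was lower (-1.37 ± 0.26, limma's adjusted p = 0.0018) and nlp-89 higher (0.98 ± 0.26, limma's adjusted p = 0.029; not called without any 1 of Rheb fed replicates 1 and 2 and TOR fed replicates 2 and 3, at 0.77 to 0.97). Of 165 nuclear hormone receptor genes 4 were higher and 2 lower, led by nhr-129 (1.30 ± 0.25, limma's adjusted p = 0.0027), nhr-176 (0.66 ± 0.12) and nhr-205 (-0.73 ± 0.15), with limma's adjusted p = 0.0016 and 0.0038. Of these nhr-205 was at -0.65 and not called without the highest-ratio array of each group. The higher count was 7 without Rheb fed replicate 3 and 2 without TOR fed replicate 1, and the lower count 1 without Rheb fed replicate 3 or TOR fed replicate 2 or 3.

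The genes lower in TOR RNAi worms lay more often on the X chromosome than the tested genes as a whole. Of 1793 tested genes of chromosome X 84 were lower, or 4.68%, against 2.84% of all genes, and 40 were higher, or 2.23%. On chromosome I 26 of 1944 were lower (1.34%) and 30 higher (1.54%), the smallest shares of any nuclear chromosome. F54F7.2, tbh-1, C39D10.7, C17G1.2, amt-1 and col-19 are on chromosome X. These shares are descriptions, and no test was made of them.

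The same contrast in worms fasted for 48 h used other arrays, though fed and fasted arrays of 1 replicate number deviated from their group means together, with correlations of 0.50 to 0.57 for TOR RNAi and 0.44 to 0.73 for Rheb RNAi. In fasted worms limma called 519 genes (4.23%), 333 higher (2.71%) and 186 lower (1.52%). Without Rheb fasted replicate 1 or 2 or TOR fasted replicate 2 or 3 there were 261, 304, 227 and 228. Of the 344 genes higher in fed worms 128 were higher in fasted worms too, 37.2% of the fed and 38.4% of the fasted list. Of the 349 lower genes 95 were lower in both, 27.2% of the fed and 51.1% of the fasted list. No gene was called in opposite directions. The fed-called genes had median differences of 1.11 and -1.03 in fed worms, and of 0.66 and -0.41 in fasted worms. Being chosen on the fed arrays by itself makes their fed differences the larger, so these medians do not show a weaker difference with fasting.

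Whether the difference itself changed with feeding was tested as an interaction, and limma called 39 genes (0.318%), of which 32 were called in fed worms and 8 in fasted worms. There were 25 without Rheb fasted replicate 2 and 59 without Rheb fasted replicate 4. That fit takes fed and fasted arrays as independent. With fed and fasted arrays of the same knockdown and number as pairs, a replicate block chosen after seeing the data, limma called 178 genes, 38 of the 39 among them, and with the pairs as a random block it called 265. Of the 178, 41 differences were more positive and 137 more negative in fed than in fasted worms. The large falls in TOR RNAi worms were mostly also seen with fasting: F54F7.2 was at -3.59 ± 0.23 in fasted worms, tbh-1 at -2.93 ± 0.19, C39D10.7 at -3.34 ± 0.29, C44B7.5 at -2.28 ± 0.17 and ddo-3 at -1.95 ± 0.15 (limma's adjusted p from 1.8e-09 to 1.9e-07), and none of the 5 was called for interaction. With the random block tbh-1 was (limma's adjusted p = 0.046), and with the pairs it was not (limma's adjusted p = 0.057). Nor was lys-10 called for interaction, at 3.25 ± 0.64 in fasted worms (limma's adjusted p = 0.0039). Of the 15 largest falls 9 were called in fasted worms and 5 for interaction, and of the 15 largest rises 3 were called in fasted worms and 7 for interaction. With the pairs 6 of these falls and 10 of these rises were called for interaction. These genes were chosen by their fed difference, which is part of the interaction, so the choice itself favours such calls. With food dod-24 was at 3.45 and without it at -0.1, an interaction of 3.54 (limma's adjusted p = 8.5e-05). sysm-1 was at 4.47 and 0.47 (interaction 4.01), C14C6.5 at 3.84 and 0.43 (3.41), and mbug-1 at 5.21 and 1.92 (3.29). For spp-12 the difference was -3.14 with food and 1.48 with fasting, where it was not called (limma's adjusted p = 0.070), and its interaction of -4.62 was the largest in size among the named genes (limma's adjusted p = 0.0012).

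By list, no collagen and no hedgehog-related gene was called in fasted worms, where their medians were -0.02 and -0.13, and 2 collagens (col-8 and col-19) and 1 hedgehog-related gene (grd-3) were called for interaction. With the pairs 11 of 105 collagens and 4 of 55 hedgehog-related genes were, all with the more negative difference in fed worms. Over all 12277 genes tested the fit with pairs called 178, and 137 of these were also more negative in fed worms. Of 33 peptidases 7 were higher and 1 lower in fasted worms, of 28 lysozymes and saposins 7 were higher and none lower, and of 99 C-type lectins 13 were higher and 1 lower. For interaction 4 lysozymes and saposins, 3 C-type lectins and no peptidase were called. With the pairs there were 6 lysozymes and saposins, all more negative in fed worms, and 7 C-type lectins, 5 more positive and 2 more negative. With the pairs 2 peptidases were called, 1 in each direction. Of 57 UDP-glucuronosyltransferases 9 were higher and 1 lower in fasted worms, against 3 and 9 in fed worms, and ugt-66 was called for interaction (-2.78, limma's adjusted p = 0.0087), with the pairs 4 genes of the list. Muscle genes had a median of -0.32 in fasted worms with 2 lower, and none was called for interaction.

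**Figure D4:**
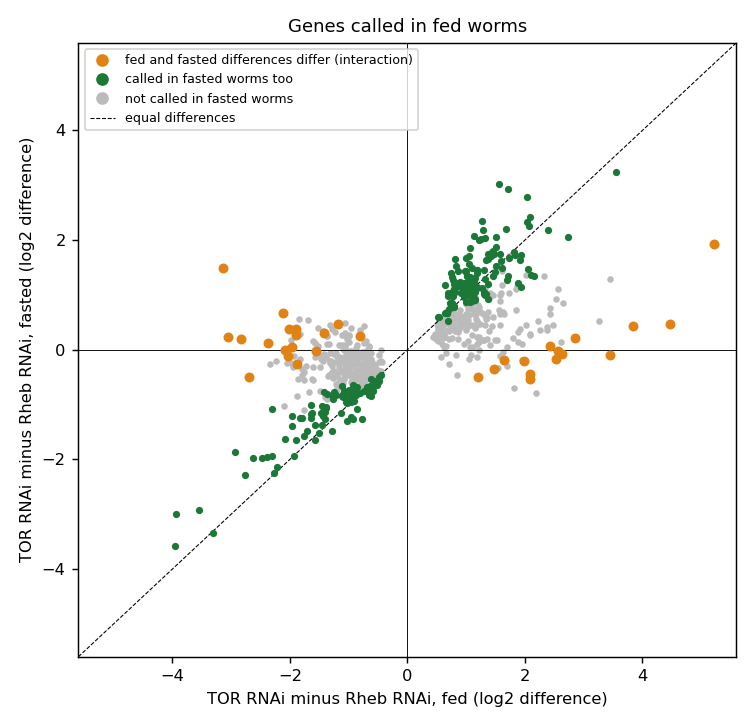
TOR RNAi minus Rheb RNAi log2 difference in fed worms (horizontal axis) against that in fasted worms (vertical axis) for the 693 genes called in fed worms; orange points were called for interaction, green points were called in fasted worms and not for interaction, grey points in neither, and the dashed line marks equal differences. Green points lie along the dashed line and orange points mostly near 0 on the vertical axis, as for dod-24, with 3.45 fed against -0.1 fasted. The colours are set by calls on these same differences, so these positions follow in part from the colouring.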

How the data were processed

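Per the submitters' processing notes, GCRMA (version not given in the sources used here) made the deposited values, and the series' design text names GeneSpring GX 7.3.1. The deposited table holds 1 intensity on a linear scale for each of 22625 probe sets and 24 arrays, background-corrected and normalized by the authors as those notes say. Here log2 was taken of it. The given annotation assigned 20766 probe sets to 1 gene, 887 to several and 895 to none, and 77 were controls. For each of 17118 genes the probe set of highest mean over all arrays was kept, and 12277 genes above log2 4 on at least 3 arrays were tested.

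All 24 arrays entered 1 limma 3.58.1 fit (R 4.3.3) of 6 groups, with contrasts TOR RNAi minus Rheb RNAi in fed and in fasted worms and their difference, and Benjamini-Hochberg adjustment at 0.05. The fit of the fed contrast was tested on simulated data with independent arrays, and the other contrasts and fits were not. Deviations of same-numbered TOR RNAi and Rheb RNAi arrays correlated by 0.19, 0.00 and 0.09 in fed worms, so numbers were not taken to pair them. Fed and fasted arrays of 1 knockdown and number correlated by 0.44 to 0.73 and were taken as pairs in an added interaction fit. The p-values measure the spread between these samples. Members and gene lists were chosen with earlier results of these data known. Named genes were the targets, the 15 called genes with the largest differences in each direction among those whose arrays did not overlap and, in each list, up to 4 members of smallest p. Others, such as ctsa-1.1 and wrt-6, were chosen after their values were seen. Promoter sequences were not analysed here.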

Additional observations from a re-analysis of the deposited data

Results flagged for a closer look

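For 11 of the 180 named genes 1 of the 4 Rheb RNAi arrays of fed worms lay far from the other 3, and chance alone does so in about 1 in 20 groups. Rheb fed replicate 3 was high for the muscle genes deb-1 (8.97) and unc-89 (10.02) and for the vacuolar ATPase genes vha-6 (9.25) and vha-10 (11.11), all as log2 intensity. Replicate 4 stood apart for cox-11 (9.10), lipl-3 (4.06) and perm-4 (14.21), replicate 1 for ctsa-1.2 (8.47) and ssp-35 (3.36), and replicate 2 for cpt-3 (7.58) and skn-1 (10.38).

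For 18 of the named genes the TOR RNAi minus Rheb RNAi difference in fed worms itself differed from that in fasted worms by limma's interaction term, at adjusted p from 8.5e-05 to 0.049. Over all 12277 genes tested 39 did (0.318%). Most named genes were chosen by the size or p of the fed difference, which is part of the interaction and so favours such calls. The fed difference was the more positive for sysm-1 (by 4.01), dod-24 (3.54), C14C6.5 (3.41), mbug-1 (3.29), clec-67 (2.71), F01D5.1 (2.65), F55G11.8 (2.58) and pho-1 (1.69). It was the more negative for spp-12 (by -4.62), fipr-26 (-3.28), clec-76 (-3.04), ugt-66 (-2.78), F13H8.3 (-2.5), col-8 (-2.39), F42A8.1 (-2.2), grd-3 (-2.02), col-19 (-1.91) and cpt-5 (-1.66). With fed and fasted arrays of 1 knockdown and number paired, all but cpt-5 (limma's adjusted p = 0.054) were called.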

How the results depend on the processing

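Both let-363 probe sets and rheb-1 probe set 188936_at kept direction and call under every alternative run on them. Probe set 175488_at of rheb-1 was at 0.64 and called with the replicate block, at -0.0295 without Rheb fed replicates 1 and 2 and at 1.01 and called without replicates 3 and 4, both omissions chosen after seeing the data. Fits of the compared groups alone called 307 genes in fed and 305 in fasted worms, against 693 and 519. Leaving out 1 array gave 414 to 675 calls in fed worms, 227 to 772 in fasted worms and 25 to 59 for interaction, against 39. Without the highest 3′ to middle ratio array of each group these counts were 413, 171 and 15, and without probe sets that may read several transcripts interaction gave 24. TOR RNAi and Rheb RNAi samples share only a number, and the replicate block gave 2933, 3281 and 106 calls. With fed and fasted arrays of 1 knockdown and number paired, interaction gave 178 calls, and a random replicate block of these pairs gave 625, 499 and 265. Centring and quantile normalization gave 720 and 717 calls in fed worms, 47.1% and 44.6% of them higher. Of 89 called named genes, 54 kept their call under every alternative and none changed sign, while 21 were not called without the highest-ratio arrays. The uncalled gene lgc-26, at 0.28, was at -0.16 without those arrays, at -0.19 without Rheb fed replicate 3 and at -0.15 without replicates 3 and 4, and at -0.19 to 0.49 over all omissions of 1 array. The cause of these shifts, the smaller number of arrays included, was not tested. The 3 or 4 arrays per group limit precision.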
